A study of Mus musculus with 12 samples.

Results

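The TRBJ1 cluster is the upstream group of joining (J) segments of the mouse T cell receptor beta locus. Its members here were all productive beta chain (TRB) contigs that the deposited lists label with TRBJ1-1, TRBJ1-2, TRBJ1-3, TRBJ1-4, TRBJ1-5 or TRBJ1-6. They numbered 2692 of 7257 productive TRB contigs, and the other 4565 carried a TRBJ2 segment. The contigs came from 6 receptor libraries of sorted CD45+ cells from C57BL/6 mice. These were 2 libraries of 5xFADTg brain parenchyma, 2 of NonTg brain parenchyma, 1 of 5xFADTg meninges (the membranes around the brain) and 1 of NonTg meninges. 5xFAD mice carry human amyloid precursor protein and presenilin transgenes with familial Alzheimer's disease mutations, expressed in neurons from the Thy1 promoter, and they form amyloid plaques. NonTg mice lack the transgenes. The labels give no age, sex or number of animals and do not say whether animals were pooled, so p-values measure only the spread between these libraries, which may be technical.

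A beta chain gene is built in the thymus by joining a D segment to a J segment and then a V segment to the DJ unit. Bases are trimmed from the segment ends and random bases are added between them, and the resulting junction encodes the CDR3 loop that contacts the peptide or lipid presented to the T cell. The locus holds a pair of D-J-C units in a row. TRBD1 lies before the TRBJ1 segments and the constant gene TRBC1, and TRBD2 lies after them, before the TRBJ2 segments and TRBC2. TRBD1 can therefore join either J cluster by deletion, while TRBD2 lies downstream of TRBJ1. All cells of a clone carry the same rearrangement, so a J segment can be common because many independent clones use it or because a few clones are large.

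The 6 germline segments are shown because their lengths and ends set the J part of each CDR3. In GENCODE M21 (GRCm38, the assembly named mm10) they lie on the forward strand of chromosome 6 within 1743 bases, at chr6:41533864-41533911 (TRBJ1-1), chr6:41534001-41534048 (TRBJ1-2), chr6:41534323-41534372 (TRBJ1-3), chr6:41534811-41534861 (TRBJ1-4), chr6:41535084-41535133 (TRBJ1-5) and chr6:41535554-41535606 (TRBJ1-6). TRBJ1-1 starts 651 bases after the end of TRBD1. Capitals mark the part of each J segment inside the CDR3, which ends with the codon of the conserved phenylalanine.
TRBJ1-1: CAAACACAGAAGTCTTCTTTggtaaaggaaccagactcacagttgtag
TRBJ1-2: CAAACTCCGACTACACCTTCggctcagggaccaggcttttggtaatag
TRBJ1-3: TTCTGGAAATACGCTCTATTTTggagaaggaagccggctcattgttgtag
TRBJ1-4: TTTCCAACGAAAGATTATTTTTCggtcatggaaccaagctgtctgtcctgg
TRBJ1-5: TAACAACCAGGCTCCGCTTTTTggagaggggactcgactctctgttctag
TRBJ1-6: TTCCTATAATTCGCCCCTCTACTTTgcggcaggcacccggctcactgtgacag
The CDR3 part was 20 bases in TRBJ1-1 and TRBJ1-2, 22 in TRBJ1-3 and TRBJ1-5, 23 in TRBJ1-4 and 25 in TRBJ1-6. Capitals mark, in each D segment, the 6 bases that were searched in the CDR3 sequences.
TRBD1: ggGACAGGgggc
TRBD2: ggGACTGGgggggc

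Each library held 49997 to 128700 unique molecular identifiers (UMIs, each a tagged cDNA molecule) over its contigs and 425 to 2122 cells with a productive chain. Of 7034 cell barcodes, 21 were listed in more than 1 library, and 0 of these carried the same receptor pair. Of the TRBJ1 contigs, 344 lay in cells with 2 or more productive TRB chains, and 459 were the only TRB of a cell without an alpha chain (TRA). The remaining 1889 cells, of 5207 paired cells in all, had exactly 1 TRB and at least 1 TRA. They formed 1078 of 3108 clonotypes, a clonotype being all cells of a library with the same TRB and TRA CDR3 nucleotide sequences. These clonotypes held 1012 distinct beta nucleotide sequences over all libraries, and 0 of them carried more than 1 J label. The constant gene labels matched the J labels. TRBC1 was named in 2666 of 2692 TRBJ1 contigs (99.0%, 95% exact binomial interval 98.6 to 99.4%), 26 had no constant label, and TRBC2 was named in 0, which allows a share of up to 0.111%. Such intervals and limits cover counting error only.

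TRBJ1-1, the segment nearest to TRBD1, was the most used member by clonotype in every library. It was joined in 357 of the 1078 TRBJ1 clonotypes (33.1%), followed by TRBJ1-2 with 206 (19.1%), TRBJ1-4 with 189 (17.5%), TRBJ1-3 with 152 (14.1%), TRBJ1-6 with 89 (8.26%) and TRBJ1-5 with 85 (7.88%). TRBJ1-1 formed 10.8% and 12.9% of all clonotypes in 5xFADTg parenchyma, 10.7% and 11.1% in NonTg parenchyma, 11.7% in 5xFADTg meninges and 11.2% in NonTg meninges. All 6 libraries were thus within a narrow band, with a mean of 11.4% ± 0.798 (SD, n = 6). The order of the other members was less steady. TRBJ1-2 averaged 6.31% ± 1.01 of clonotypes and TRBJ1-4 averaged 6.22% ± 1.47 (SD, n = 6 each), a gap smaller than the spread of either. TRBJ1-3 averaged 4.91% ± 1.19 and was between 3.79% and 7.06%. TRBJ1-5 and TRBJ1-6, which are the second-last and last members along the cluster, averaged 2.90% ± 0.949 and 2.86% ± 0.388 (SD, n = 6 each), so their order did not differ beyond their spread. TRBJ1-7, which the annotation lists after TRBJ1-6, was named in 0 contigs of any kind.

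**Figure D1:**
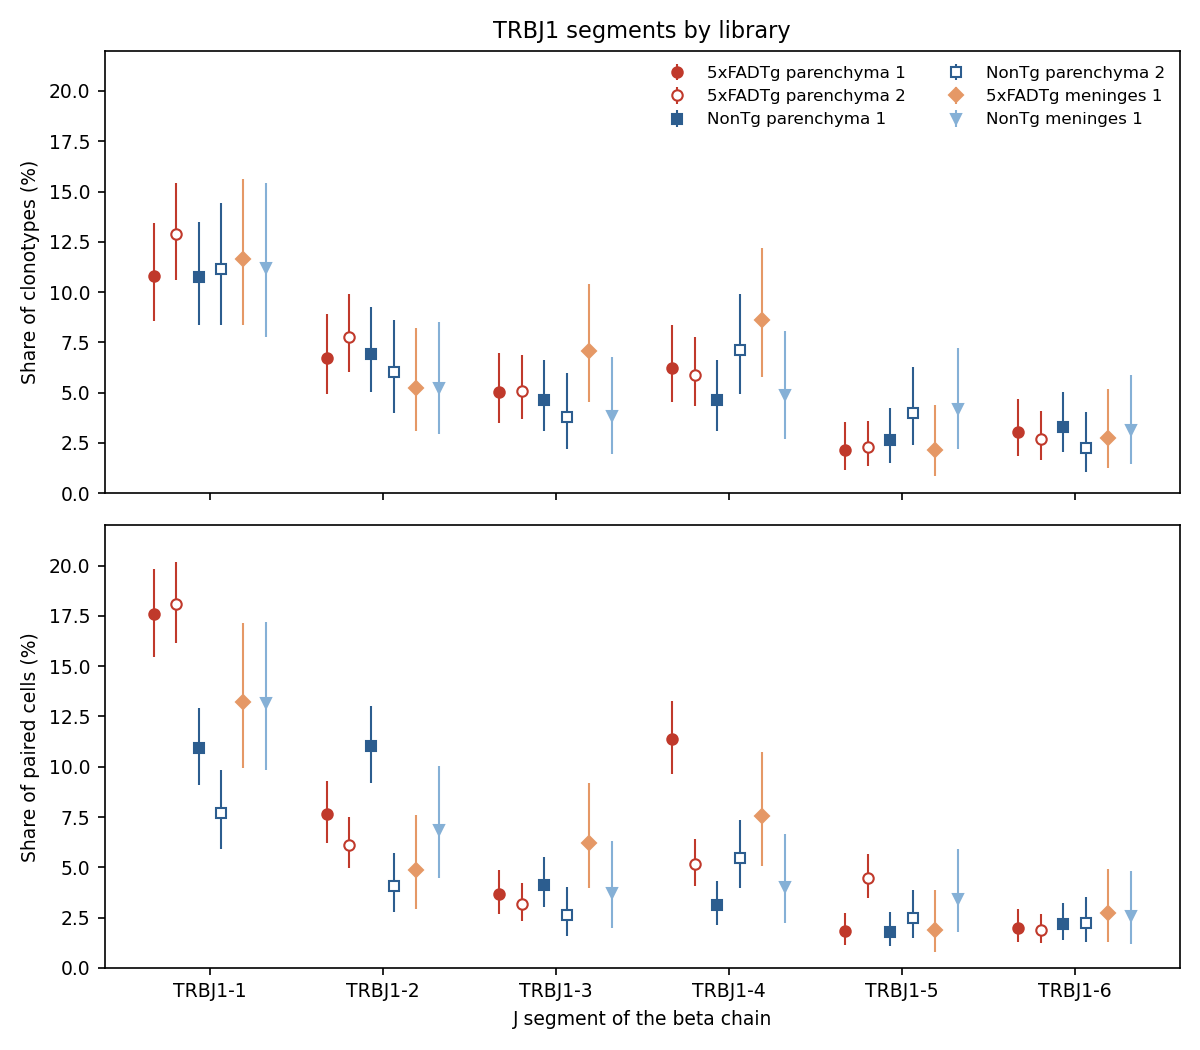
Share of all clonotypes (upper panel, %) and of all paired cells (lower panel, %) that carried each TRBJ1 segment, by library. Points are libraries and bars are 95% exact binomial intervals, which cover counting error only. The bars of the lower panel treat cells of a clone as independent and are too narrow. TRBJ1-1 stands at 10.7 to 12.9% of clonotypes in all 6 libraries and spreads to 7.70 to 18.1% of cells.

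The genotype comparison set the J segments of 5xFADTg parenchyma against those of NonTg parenchyma. Counted by clonotype, none of the 6 members passed the test between the genotypes. TRBJ1 segments were in 33.9% (95% exact interval 30.3 to 37.7%) and 36.6% (33.2 to 40.1%) of 5xFADTg clonotypes, and in 32.8% (29.1 to 36.7%) and 34.3% (29.9 to 38.9%) of NonTg clonotypes. These shares overlapped between the genotypes, and their means differed by 1.71 percentage points (exact permutation p = 0.667, two-sided; 2 against 2 libraries cannot go below 0.333). It was 0.374 points without 5xFADTg library 2, 0.976 without NonTg library 1 and 3.04 without 5xFADTg library 1. With clonotypes defined by the beta chain only, whether or not an alpha chain was read, that difference turned to -0.945 points. By segment, edgeR's quasi-likelihood test called 0 of the 6 members, against 0% of 118 tested V and J segments (0 members and 6 segments at an unadjusted p under 0.05). DESeq2 also called 0 members and 0 segments, with 0 segments at an unadjusted p under 0.05.

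The largest difference by clonotype was that of TRBJ1-5. It was in 2.13% and 2.30% of 5xFADTg clonotypes, against 2.64% and 4.01% of NonTg clonotypes, and its log2 fold change was -0.54 (SE 0.29, adjusted p = 0.885 by edgeR), or -0.25 to -0.85 with 1 of the 4 libraries left out. TRBJ1-3 had the largest difference in the other direction, with 5.02% and 5.10% in 5xFADTg against 4.62% and 3.79% in NonTg (0.25, SE 0.22, edgeR adjusted p = 0.949). The libraries of the genotypes did not overlap for these 2 of the 6 members, beside 33.1% of all tested segments. The log2 fold changes of TRBJ1-1 (0.12), TRBJ1-2 (0.16), TRBJ1-4 (0.08) and TRBJ1-6 (0.01) were smaller than their SEs of 0.19 to 0.28. The median over the 6 members was 0.10, and over all 118 segments it was 0.04. The signs of several members turned under other settings, as given in the closing section.

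Counted by cell, TRBJ1 segments took a larger share in both 5xFADTg libraries than in both NonTg libraries. They were in 44.0% (95% exact interval 41.2 to 46.9%) and 38.9% (36.4 to 41.4%) of 5xFADTg paired cells, against 33.1% (30.3 to 36.0%) and 24.5% (21.53 to 27.8%) of NonTg paired cells. These intervals treat cells as independent, but cells of a clone share 1 rearrangement, so the intervals are too narrow and cannot compare the genotypes. The means were 41.5% ± 3.64 and 28.8% ± 6.06 (SD, n = 2 each), a difference of 12.6 points (exact permutation p = 0.333, two-sided, which is the lowest value 2 against 2 can give). TRBJ1-1 showed the same order, with 17.6% and 18.1% of 5xFADTg cells against 10.9% and 7.70% of NonTg cells. TRBJ1-4 had 11.4% and 5.16% against 3.10% and 5.48%, so its libraries overlapped. TRBJ1-6 was lower in 5xFADTg cells, at 1.99% and 1.86% against 2.16% and 2.22%. Groups that do not overlap are common with so few libraries: 2 of the 6 members did not overlap by cell, beside 33.9% of all tested segments. With cells in place of clonotypes, edgeR gave TRBJ1-1 a log2 fold change of 0.94 (SE 0.43, unadjusted p = 0.0301, edgeR adjusted p = 0.292) and called none of the 6 members.

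The difference by cell moved with the large clonotypes. Clonotypes of 10 or more cells that used TRBJ1 numbered 13 of 30 in 5xFADTg parenchyma, with 477 of 862 cells, and 7 of 21 in NonTg parenchyma, with 105 of 513 cells. Without clonotypes of 10 or more cells, an alternative chosen after seeing the data, TRBJ1 was in 34.0% and 34.8% of 5xFADTg cells and in 32.1% and 34.4% of NonTg cells. The difference was then 1.16 points, and the libraries overlapped (exact permutation p = 0.667, n = 2 each). Leaving out large clonotypes tends by construction to bring shares by cell nearer to shares by clonotype. The cause of the difference by cell was not tested. NonTg library 2 had 6 clonotypes of 10 or more cells, and 0 used TRBJ1 (95% exact interval 0 to 45.9%). Without that library the difference by cell was 8.34 points, and without NonTg library 1 it was 16.9 points.

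**Figure D2:**
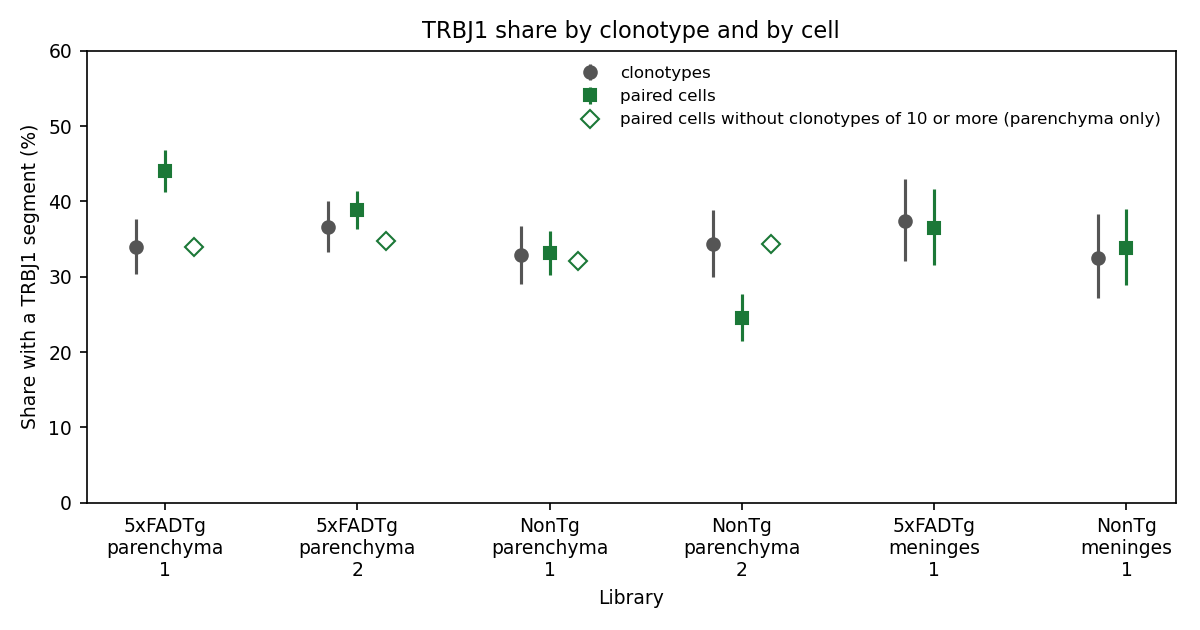
Share with a TRBJ1 segment (%) in each library, counted by clonotype (circles), by paired cell (filled squares) and, for parenchyma, by paired cell without clonotypes of 10 or more cells (open diamonds). Bars on circles and squares are 95% exact binomial intervals, and those on squares treat cells of a clone as independent and are too narrow. By cell the 5xFADTg parenchyma libraries stand at 44.0% and 38.9% and the NonTg ones at 33.1% and 24.5%, while the open diamonds of all 4 lie between 32.1% and 34.8%.

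The large TRBJ1 clonotypes differed between the libraries. Over all libraries, 20 TRBJ1 clonotypes had 10 or more cells and held 582 of the 1889 TRBJ1 cells. By segment, 7 used TRBJ1-1 (285 cells), 7 used TRBJ1-2 (136 cells), 3 used TRBJ1-4 (103 cells), 2 used TRBJ1-5 (48 cells) and 1 used TRBJ1-3 (10 cells). TRBJ1-6 had none, and its largest clonotype had 6 cells. The beta CDR3 sequences of the clonotypes with 20 or more cells are shown because the shares by cell moved when clonotypes of 10 or more cells were left out. Capitals mark the stretch at the 3′ end that is identical to the germline J segment, so the capitals show how much of J was kept.
TRBV1 with TRBJ1-4, 71 cells in 5xFADTg parenchyma 1: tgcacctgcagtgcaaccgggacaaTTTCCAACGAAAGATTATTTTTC
TRBV5 with TRBJ1-1, 69 cells in 5xFADTg parenchyma 2: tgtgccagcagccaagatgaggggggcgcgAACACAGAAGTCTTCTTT
TRBV17 with TRBJ1-1, 64 cells in 5xFADTg parenchyma 1: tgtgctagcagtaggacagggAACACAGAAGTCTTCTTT
TRBV12-2+TRBV13-2 with TRBJ1-1, 60 cells in 5xFADTg parenchyma 2: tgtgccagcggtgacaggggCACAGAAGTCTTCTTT
TRBV29 with TRBJ1-1, 38 cells in 5xFADTg parenchyma 1: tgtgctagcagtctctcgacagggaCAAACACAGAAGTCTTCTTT
TRBV29 with TRBJ1-2, 36 cells in 5xFADTg parenchyma 1: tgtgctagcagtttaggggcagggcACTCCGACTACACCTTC
TRBV12-2+TRBV13-2 with TRBJ1-2, 34 cells in NonTg parenchyma 1: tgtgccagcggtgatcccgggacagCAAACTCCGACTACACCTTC
TRBV13-3 with TRBJ1-1, 30 cells in 5xFADTg parenchyma 1: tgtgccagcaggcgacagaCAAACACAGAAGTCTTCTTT
TRBV1 with TRBJ1-5, 48 cells over 2 clonotypes in 5xFADTg parenchyma 2: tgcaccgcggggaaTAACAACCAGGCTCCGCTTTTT
TRBV12-2+TRBV13-2 is a joint label of the deposited files that names both V genes, and it was kept as its own segment. All of them but the TRBV12-2+TRBV13-2 and TRBJ1-2 clone were from 5xFADTg parenchyma. The TRBV1 and TRBJ1-4 clone kept all 23 J bases and made up 5.89% of the paired cells of its library, paired with TRAV7D-2 and TRAJ26. The TRBV13-3 clone paired with TRAV11 and TRAJ18, the alpha segments of invariant natural killer T (iNKT) cells. The TRBV1 and TRBJ1-5 sequence counted as 2 clonotypes of 24 cells each, with a TRAV10 and a TRAV7-5 alpha chain, and 28 of the 49 paired cells with this beta chain listed 2 or more TRA chains. Counting all cells with exactly 1 TRB, with any alpha chain or none, the TRBV17 sequence was in 86 cells and the TRBV5 sequence in 82.

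**Figure D3:**
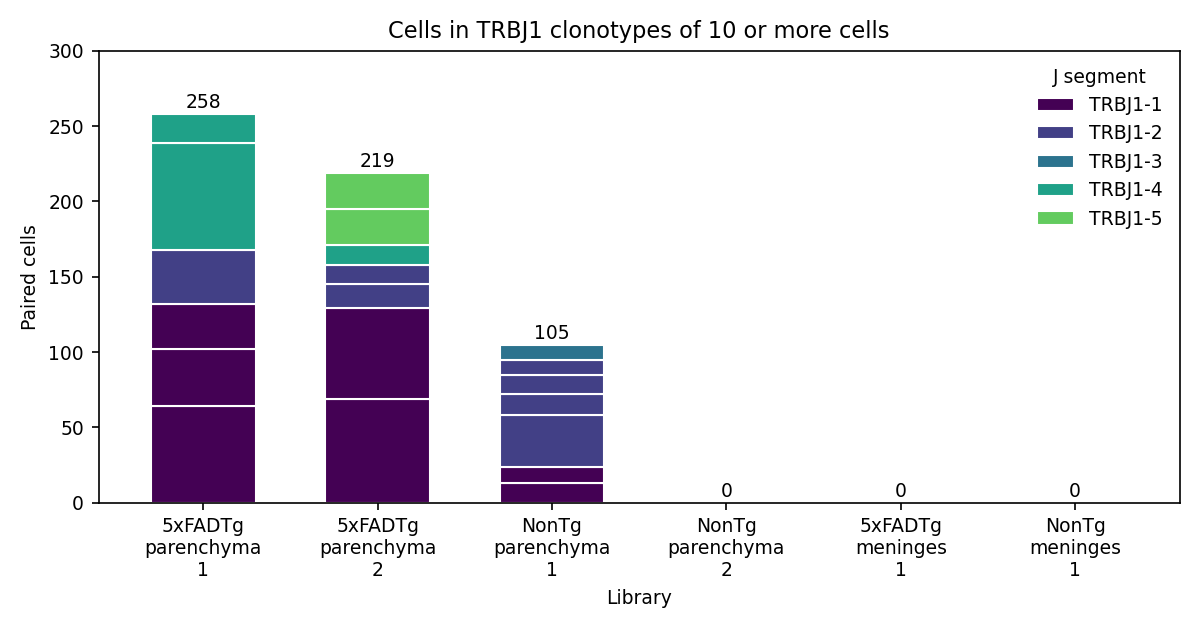
Paired cells in TRBJ1 clonotypes of 10 or more cells, by library. Each block is a clonotype, coloured by its J segment, and the number above a bar is the sum. The 5xFADTg parenchyma libraries hold 258 and 219 such cells, NonTg parenchyma 1 holds 105, and the other 3 libraries hold 0.

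The largest TRBJ1 clonotype of the other libraries was smaller. In NonTg parenchyma 2 it had 9 cells and joined TRBV19 to TRBJ1-4. In 5xFADTg meninges it had 9 cells and was the TRBV29 and TRBJ1-1 clone shown above from 5xFADTg parenchyma 1. In NonTg meninges it had 6 cells and was the TRBV12-2+TRBV13-2 and TRBJ1-2 clone shown above from NonTg parenchyma 1.

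Within libraries, expanded clonotypes (2 or more cells) were set against clonotypes of 1 cell. Of the TRBJ1 clonotypes, 138 of 1078 were expanded (12.8%, 95% exact interval 10.9 to 14.9%), against 286 of 2030 TRBJ2 clonotypes (14.1%, 12.6 to 15.7%). The library means were 11.5% ± 4.91 and 13.2% ± 3.74 (SD, n = 6), a difference of -1.70 points, lower for TRBJ1 in 4 of 6 libraries (two-sided exact sign-flip permutation p = 0.188, adjusted p = 0.225 over 6 such comparisons). It was -1.13 points without NonTg parenchyma 2 and -0.381 points without clonotypes found in 2 or more libraries. By segment, the expanded share was 16.2% for TRBJ1-1 (95% exact interval 12.6 to 20.5%), 14.6% for TRBJ1-6 (8.01 to 23.7%), 11.2% for TRBJ1-3, 11.1% for TRBJ1-4, 10.2% for TRBJ1-2 (6.42 to 15.2%) and 9.41% for TRBJ1-5. edgeR's quasi-likelihood test with the library as block called 0 of the 6 members, against 2.5% of 120 segments tested (0 members and 13 segments at an unadjusted p under 0.05). The DESeq2 fit called 0 members and 1 segment (0 members and 8 segments at an unadjusted p under 0.05). The segments edgeR called were TRBV13-2, TRAV11 and TRAJ18, none of them a member and all lower among expanded clonotypes. TRBJ1-1 had a log2 fold change of 0.29 (SE 0.17, edgeR adjusted p = 0.707) and TRBJ1-2 of -0.52 (SE 0.30, edgeR adjusted p = 0.707). TRBJ1-3 had -0.29 (SE 0.37), TRBJ1-4 had -0.29 (SE 0.32), TRBJ1-5 had -0.58 (SE 0.56) and TRBJ1-6 had 0.12 (SE 0.48), with edgeR adjusted p-values of 0.707 to 0.971. Single libraries moved these values widely: without 5xFADTg parenchyma 2, TRBJ1-2 stood at -0.064, TRBJ1-3 at -0.074 and TRBJ1-4 at -0.88. The median was -0.29 over the members and -0.06 over all 120 segments. Counting clones as expanded from 3 cells, the difference in expanded share turned to 0.166 points.

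Among clonotypes of 10 or more cells, TRBJ1 made up 20 of 52 (38.5%, 95% exact interval 25.3 to 53.0%), against 35.0% (33.2 to 36.9%) of clonotypes of 1 cell. Of clonotypes with 2 to 4 cells it made up 98 of 317 (30.9%, 25.9 to 36.3%) and of those with 5 to 9 cells 20 of 55 (36.4%, 23.8 to 50.4%). These counts pool the libraries, their intervals overlapped, and an order of the size classes was not tested. Among parenchyma libraries, TRBJ1 in the class of 10 or more cells ranged from 0 of 6 (NonTg parenchyma 2) to 6 of 12 (5xFADTg parenchyma 1).

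The next comparison set meninges against parenchyma. TRBJ1 was in 37.4% (95% exact interval 32.2 to 42.9%) of 5xFADTg and 32.5% (27.1 to 38.3%) of NonTg meningeal clonotypes. The means were 35.0% ± 3.47 in meninges (SD, n = 2) and 34.4% ± 1.58 in parenchyma (SD, n = 4), a difference of 0.549 points (exact permutation p = 0.867, two-sided, smallest possible 0.133). Leaving out 5xFADTg meninges gave -1.90 points, and leaving out NonTg meninges gave 3.002 points. With genotype as covariate, edgeR called 0 of the 6 members, against 0% of 120 segments (0 members and 7 segments at an unadjusted p under 0.05). The DESeq2 fit called 0 members and 0 segments (0 members and 1 segment at an unadjusted p under 0.05). TRBJ1-2 had the largest difference, with 5.21% and 5.24% of meningeal clonotypes and 6.01% to 7.78% of parenchymal ones (log2 fold change -0.40, SE 0.23, edgeR adjusted p = 0.953). TRBJ1-3 had 7.06% in 5xFADTg meninges and 3.85% in NonTg meninges, which was the highest value and near the lowest of the 6 libraries (0.24, SE 0.25). TRBJ1-4 had 8.59% and 4.90% in the same libraries (0.22, SE 0.25). The other log2 fold changes were 0.00 for TRBJ1-1 (SE 0.22), 0.20 for TRBJ1-5 (SE 0.35) and 0.05 for TRBJ1-6 (SE 0.34), and the edgeR adjusted p-values of these 5 members were 0.953 to 0.9999. The median was 0.12 over the members and -0.01 over all 120 segments.

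Some TRBJ1 clones were found in both tissues of a genotype, so the tissue libraries are not independent. Of parenchymal TRBJ1 clonotypes, 33 of 863 (3.82%) recurred in the meningeal library of their genotype, against 77 of 1633 TRBJ2 clonotypes (4.72%). By library the TRBJ1 share was 2.69% and 2.44% in 5xFADTg and 7.54% and 3.25% in NonTg, and the TRBJ2 share was 4.61% and 2.21% in 5xFADTg and 7.86% and 4.75% in NonTg. The difference averaged -0.879 points and was lower for TRBJ1 in 3 of 4 libraries (exact sign-flip permutation p = 0.25, adjusted p = 0.25, where 4 libraries cannot go below 0.125), and it was -0.533 points without 5xFADTg parenchyma 1. The shared clonotypes used TRBJ1-1 in 15 cases, TRBJ1-2 in 5, TRBJ1-3 in 4, TRBJ1-4 in 4, TRBJ1-5 in 3 and TRBJ1-6 in 2. Those with most cells joined TRBV17 to TRBJ1-1 (4 meningeal cells beside 64 of 5xFADTg parenchyma 1), TRBV29 to TRBJ1-1 (9 beside 38, same libraries) and TRBV12-2+TRBV13-2 to TRBJ1-2 (6 meningeal cells beside 34 of NonTg parenchyma 1). A TRBV12-2 and TRBJ1-1 clone (5 beside 13) and a TRBV14 and TRBJ1-1 clone (5 beside 11) of the same NonTg libraries followed. The TRBV14 beta chain was also in another shared clonotype (1 beside 7) with a different alpha chain. Of its 18 paired cells in NonTg parenchyma 1, 10 listed 2 or more TRA. The 33 shared clonotypes can therefore include a clone more than once.

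The members' mean CDR3 lengths ran nearly in the order of their germline lengths. Beta CDR3 averaged 13.5 amino acids over all TRBJ1-1 clonotypes, 13.8 for TRBJ1-2, 13.9 for TRBJ1-5, 14.3 for TRBJ1-4, 14.3 for TRBJ1-3 and 14.8 for TRBJ1-6. Set against all other beta chains of the same library, TRBJ1-1 differed by -0.565 ± 0.398 amino acids and TRBJ1-6 by 0.678 ± 0.409 (SD, n = 6 libraries), each with its sign in 5 of 6 libraries (exact sign-flip permutation p = 0.0625, adjusted p = 0.125 over the 6 segments). TRBJ1-4 differed by 0.254 ± 0.192, positive in 5 of 6 libraries (exact permutation p = 0.0625, adjusted p = 0.125), and TRBJ1-2 by -0.194 ± 0.193, negative in 5 of 6 (exact permutation p = 0.0938, adjusted p = 0.141). TRBJ1-3 and TRBJ1-5 differed by 0.224 ± 0.380 and -0.120 ± 0.468 (exact permutation adjusted p = 0.338 and 0.562). None of the 6 passed 0.05 after adjustment. The smallest exact sign-flip permutation p that 6 libraries allow is 0.0312, so 1 segment alone could not pass after adjustment over 6.

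Most of a germline J end was kept. The stretch identical to J averaged 17.4 of 20 bases in TRBJ1-1, 18.5 of 20 in TRBJ1-2, 20.8 of 22 in TRBJ1-3, 20.1 of 23 in TRBJ1-4, 19.5 of 22 in TRBJ1-5 and 21.6 of 25 in TRBJ1-6. An added base that happens to match J is counted as J here. TRBJ1-3 kept its full end in 56.6% of clonotypes, against 28.0% to 38.3% for the other 5 members. TRBJ1-6 lost most, with 3.40 bases missing on average.

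Upstream of the J match, TRBJ1 junctions were shorter than TRBJ2 junctions in all 6 libraries. The V, D and added bases together averaged 22.7 ± 0.222 bases with TRBJ1 and 24.3 ± 0.361 with TRBJ2 (SD, n = 6 libraries), a difference of -1.58 ± 0.296 bases. By library the difference was -1.45 and -1.42 bases in 5xFADTg parenchyma, -1.51 and -1.54 in NonTg parenchyma, -2.17 in 5xFADTg meninges and -1.38 in NonTg meninges. The exact sign-flip permutation p was 0.0312, the smallest that 6 libraries allow, and 0.188 after adjustment over 6 comparisons. Whole CDR3 length was closer, at 13.95 ± 0.114 amino acids with TRBJ1 and 14.07 ± 0.0945 with TRBJ2 (SD, n = 6 libraries), a difference of -0.120 (-0.0789 without 5xFADTg meninges) that was negative in 5 of 6 libraries (exact sign-flip permutation p = 0.0625, adjusted p = 0.188). The germline J part inside the CDR3 averaged 21.4 bases over TRBJ1 clonotypes and 20.8 over TRBJ2 clonotypes.

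**Figure D4:**
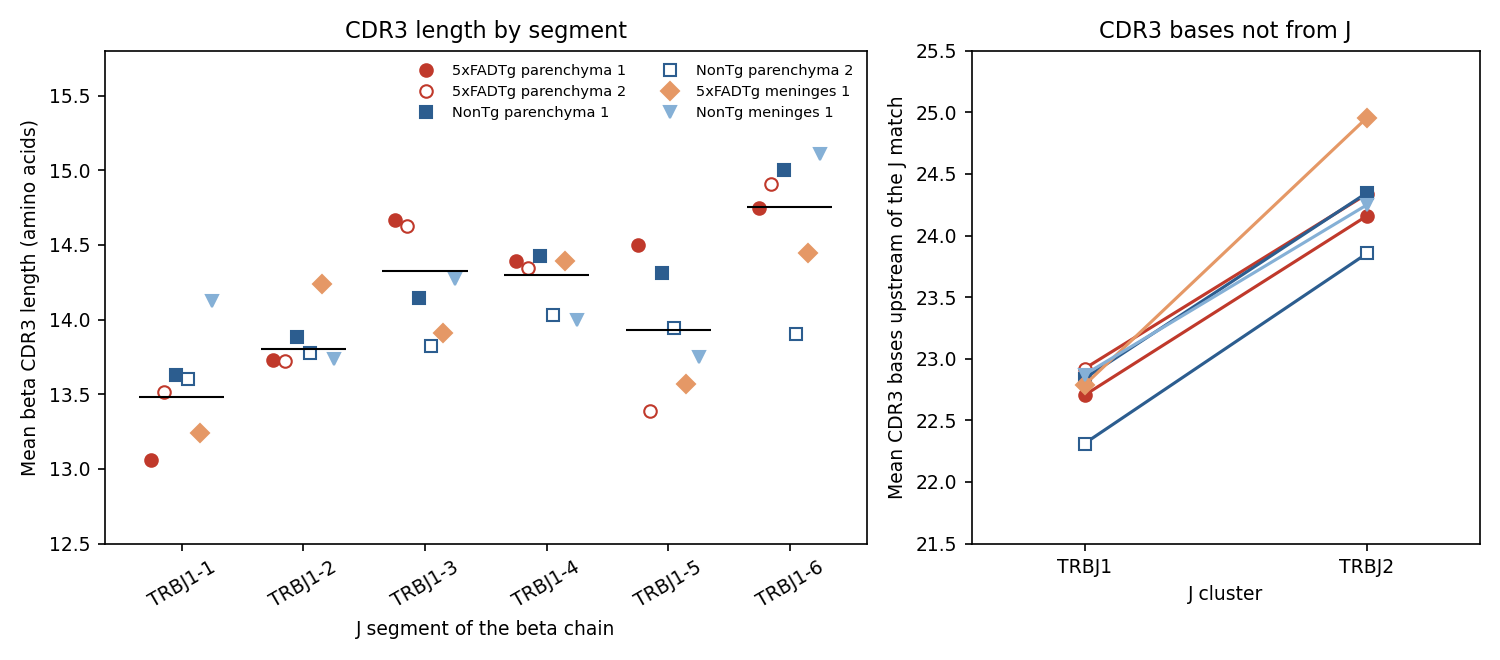
Left, mean beta CDR3 length in amino acids for each TRBJ1 segment, with a point per library and a line at the mean over all clonotypes of the segment. Right, mean CDR3 bases upstream of the J match for TRBJ1 and TRBJ2 clonotypes, with a line per library in the same colours. The axes do not start at 0. The TRBJ1 value lies below that of TRBJ2 in all 6 libraries, with differences of -2.17 to -1.38 bases.

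Letters of the D segments were found at different shares in the J clusters. The 6 letters GACAGG of TRBD1 were found upstream of the J match, on the coding strand, in 23.7% of TRBJ1 clonotypes (256 of 1078, 95% exact interval 21.2 to 26.4%) and in 11.9% of TRBJ2 clonotypes (10.5 to 13.4%). The 6 letters GACTGG of TRBD2 were found in 2 of 1078 TRBJ1 clonotypes (0.186%, 0.0225 to 0.669%) and in 21.9% of TRBJ2 clonotypes (20.1 to 23.8%). By library the TRBD1 letters ranged from 18.3% to 27.0% of TRBJ1 clonotypes and the TRBD2 letters from 0 to 1.08%. A match is a match of letters and not an assigned D segment, and the D gene was labelled in only 156 TRBJ1 contigs, all as TRBD1.

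V partners of the TRBJ1 segments were diverse. The cluster was joined to 22 V labels, led by TRBV12-2+TRBV13-2 (116 clonotypes, 10.8%), TRBV13-1 (88, 8.16%) and TRBV13-3 (78, 7.24%), with TRBV19 (78) and TRBV3 (73) next. The leading partner was TRBV12-2+TRBV13-2 for TRBJ1-2 (25 of 206 clonotypes, next 17) and TRBJ1-4 (27 of 189, next 17). For TRBJ1-1 it was TRBV13-1 (33 of 357), 1 clonotype ahead of TRBV12-2+TRBV13-2 (32). For TRBJ1-3 it was TRBV3 (22 of 152, next 17), for TRBJ1-5 it was TRBV1 (11 of 85, next 10) and for TRBJ1-6 it was TRBV19 (12 of 89, next 9). Differences between the members in their partners were not tested. No partner exceeded 14.5% of a member's clonotypes.

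To see whether the J clusters were joined to the same V segments and paired with the same alpha segments, each segment's share among TRBJ1 clonotypes was set against its share among TRBJ2 clonotypes of the same library. TRBV16 was the only segment past the threshold in edgeR's quasi-likelihood test, 0.926% of 108 tested. It was joined to TRBJ1 in 37 clonotypes and to TRBJ2 in 132. Its share was 3.14% of TRBJ1 against 7.14% of TRBJ2 clonotypes in 5xFADTg parenchyma 1, and 3.48% against 7.24% in 5xFADTg parenchyma 2. In NonTg parenchyma it was 4.02% against 6.39% and 4.55% against 7.12%, in 5xFADTg meninges 2.46% against 4.41% and in NonTg meninges 2.15% against 4.66%. TRBV16 was thus lower with TRBJ1 in 6 of 6 libraries, at 3.30% ± 0.912 against 6.16% ± 1.30 (SD, n = 6; log2 fold change -0.91, SE 0.23, edgeR adjusted p = 0.0313). The call was fragile: over 18 alternatives the log2 fold change stayed between -1.10 and -0.84, but the adjusted p passed in 10 and missed in 8, with a range of 0.00140 to 0.999. It missed with DESeq2 (adjusted p = 0.999), with cells in place of clonotypes (0.225 in edgeR), without iNKT-like receptors, without clonotypes found in 2 or more libraries (0.0977 in edgeR), and without 5xFADTg parenchyma 1 (0.156), 5xFADTg parenchyma 2 (0.190), NonTg parenchyma 1 (0.0581) or NonTg meninges (0.0557) in edgeR. Among the members, TRBV16 made up 7.24% of TRBJ1-3 clonotypes and 2.25% to 3.40% of TRBJ1-1, TRBJ1-2, TRBJ1-4 and TRBJ1-6 clonotypes, and it was joined to TRBJ1-5 in 0 of 85.

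No other partner passed in edgeR, where 14 of the 108 segments had an unadjusted p under 0.05, and DESeq2 called 0 of 108 (1 at an unadjusted p under 0.05). In the lower direction TRAJ56 followed, in 12 clonotypes with TRBJ1 and 60 with TRBJ2 (edgeR adjusted p = 0.0574, log2 fold change -1.36, SE 0.41), lower in 6 of 6 libraries, and then TRBV10 (-0.77, SE 0.26, edgeR adjusted p = 0.152). In the higher direction the nearest were TRAJ18 (0.56, SE 0.19, edgeR adjusted p = 0.152), TRAV11 (0.58, SE 0.20, edgeR adjusted p = 0.208) and TRAJ37 (0.73, SE 0.28, edgeR adjusted p = 0.250), the last higher in 6 of 6 libraries. Of the 5 V labels most used with TRBJ1, TRBV13-1 stood at 0.48 (SE 0.19) and TRBV3 at -0.42 (SE 0.18), and the other 3 lay between -0.07 and 0.10, with edgeR adjusted p-values of 0.263 to 0.973. TRBV3 was in 6.33% ± 1.77 of TRBJ1 and 9.14% ± 1.78 of TRBJ2 clonotypes (SD, n = 6) and was lower with TRBJ1 in 6 of 6 libraries.

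**Figure D5:**
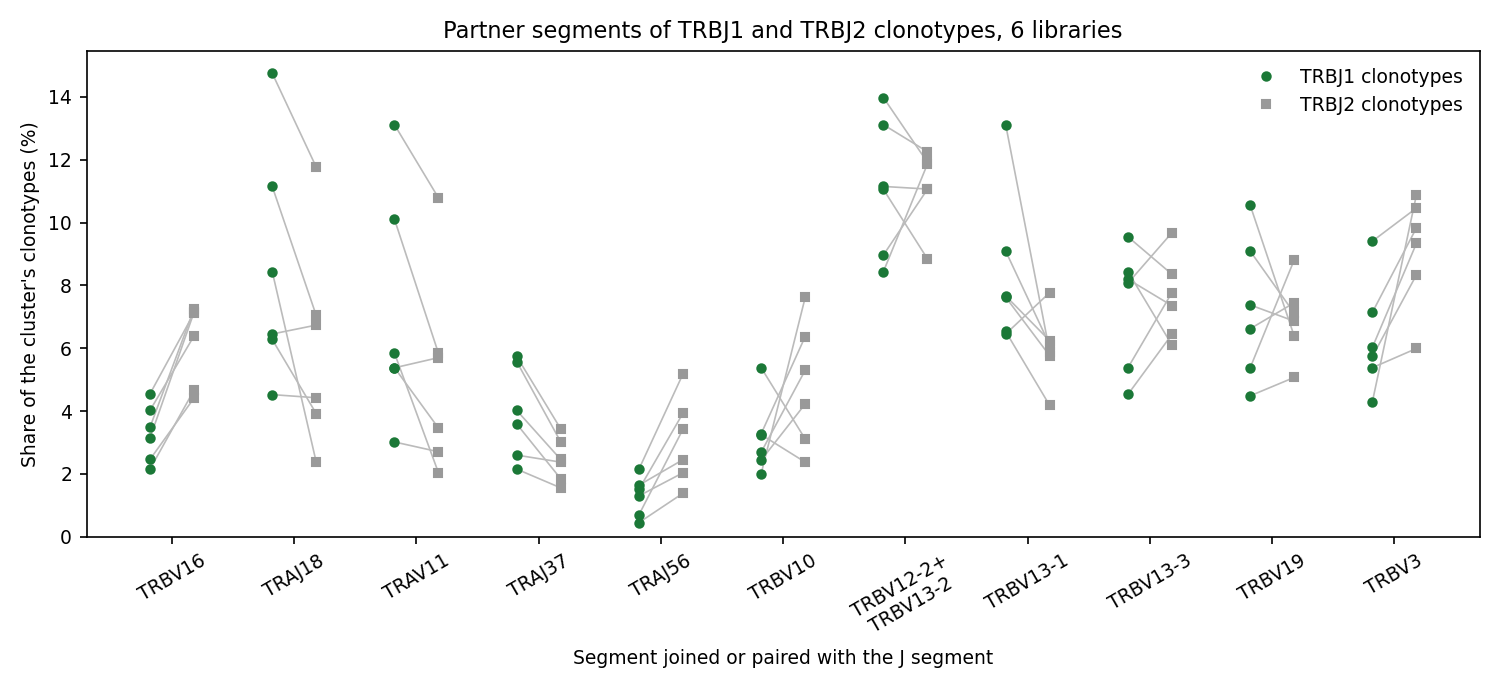
Share (%) of TRBJ1 clonotypes (circles) and of TRBJ2 clonotypes (squares) that carried each named V or alpha segment, with a line joining the values of each of the 6 libraries. TRBV16, TRAJ56 and TRBV3 are lower and TRAJ37 higher with TRBJ1 in all 6 libraries, and TRBV16 alone passed the test.

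TRAV11 and TRAJ18 form the alpha chain of iNKT cells, which recognise lipids on CD1d. Receptors with this chain and an alpha CDR3 of 15 amino acids are called iNKT-like here. TRBJ1 was in 74 of 165 iNKT-like clonotypes (44.8%, 95% exact interval 37.1 to 52.8%), beside 34.1% of all other clonotypes. By library it was in 12 of 27 and 27 of 54 in 5xFADTg parenchyma, in 5 of 16 and 9 of 14 in NonTg parenchyma, in 16 of 38 in 5xFADTg meninges and in 5 of 16 in NonTg meninges. The share was above that of the other clonotypes in 4 of the 6 libraries and below it in NonTg parenchyma 1 and NonTg meninges. The 74 used TRBJ1-1 in 23, TRBJ1-2 in 19, TRBJ1-5 in 12, TRBJ1-4 in 11, TRBJ1-3 in 8 and TRBJ1-6 in 1. Without iNKT-like receptors the TRBV16 comparison gave a log2 fold change of -0.88 (edgeR adjusted p = 0.0546). Receptors like those of mucosal-associated invariant T cells (TRAV1 with TRAJ33 and 12 amino acids) used TRBJ1 in 6 of 23 clonotypes (26.1%, 10.2 to 48.4%).

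Chains outside the clonotypes were also counted. Of 431 cells with 2 or more productive TRB chains, 176 (40.8%) listed TRBJ1 and TRBJ2 chains together, 84 (19.5%) TRBJ1 chains alone and 171 (39.7%) TRBJ2 chains alone. Among productive contigs TRBJ1 made up 35.7% ± 6.46, against 29.9% ± 2.58 among nonproductive contigs (SD, n = 6 libraries), a difference of 5.77 points that was positive in 4 of 6 libraries (exact sign-flip permutation p = 0.125, adjusted p = 0.188). Without 5xFADTg parenchyma 1, where it was 17.3 points, it averaged 3.46 points. Contigs were counted in each cell, so a large clone enters with all its cells. In 5xFADTg parenchyma 1 TRBJ1 made up 44.3% of productive contigs but 33.9% of clonotypes. The part of large clones in the difference was not tested. Of 3651 nonproductive contigs, 2644 had no V gene. Among those with a V gene, a setting chosen after seeing the data, TRBJ1 averaged 40.6% ± 6.73 (SD, n = 6 libraries), and the difference of library means turned to -4.94 points (exact permutation adjusted p = 0.312). Beta chain UMIs per paired cell had a median of 7 or 8 in TRBJ1 cells and of 8 to 10 in TRBJ2 cells, over the libraries. Their mean log2 value differed by -0.0924 ± 0.119 (SD, n = 6; exact sign-flip permutation p = 0.125, adjusted p = 0.188), and by -0.0510 without NonTg meninges.

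Of 81 candidates with at least 40 clonotypes, 3 segments had log2 shares of clonotypes closest to those of TRBJ1, each less its own mean. They were TRAV7-5, TRAV12-2 and TRBV12-2+TRBV13-2, which differed from TRBJ1 by 0.0797, 0.112 and 0.114 on average. The TRBJ1 share itself was between 32.5% and 37.4% in the 6 libraries. A small difference here marks a similarly steady share and does not show that the shares rose and fell together. TRAV12-2 stood at 4.91% in 5xFADTg meninges, where TRBJ1 was highest, and at 4.90% in NonTg meninges, where TRBJ1 was lowest. Its share in parenchyma was 5.36% to 5.78%. TRBV12-2+TRBV13-2 was nearly equal in these libraries, at 12.58% in 5xFADTg and 12.59% in NonTg meninges. TRAV7-5 stood at 2.45% in 5xFADTg meninges and was at its lowest (2.10%) in NonTg meninges.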

How the data were processed

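The data were V(D)J contig lists of 6 receptor libraries, made with Chromium Single Cell Immune Profiling v2 chemistry, per the labels' protocols. Read and UMI values are raw counts per contig as deposited, per the file headers. Cell Ranger 6.0 and the mm10 build are named in the submitters' processing notes. The 6 gene expression libraries were not analysed here. The members and lists were chosen with earlier results of these data known.

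Productive TRB contigs were selected by their deposited J label. A clonotype required exactly 1 productive TRB and at least 1 TRA, the TRA with most UMIs being used. Duplicate D and N copies of TRAV genes were merged for the segment tests. J matches were the longest identical run from the 3′ end of the CDR3 into the GENCODE M21 segment, and D letters were searched upstream of that run. Segment use was tested with edgeR 4.0.16 (quasi-likelihood, segments with at least 10 clonotypes, library size set to clonotypes, Benjamini-Hochberg adjustment, threshold 0.05), and DESeq2 1.42.0 was an alternative. Shares were compared by two-sided exact permutation tests and within libraries by two-sided exact sign-flip tests, adjusted over 6 comparisons or 6 segments. The fits were tested on simulated data. Intervals are exact binomial (Clopper-Pearson) at 95%, and limits for 0 use 3 counts. Sequencing gave 15827899 to 26710709 reads per library over the listed contigs, 349 to 1453 paired cells and 286 to 784 clonotypes, which limits precision most in the meninges. Named segments were the members, the partners past the threshold, the 5 V labels with most TRBJ1 clonotypes and the 3 partners with the smallest p in each direction. Named clones were the largest of each library and member, those of 20 or more cells and the 5 largest shared ones. Python 3.11.15, scipy 1.17.1 and R 4.3.3 were used. Chains in cells with several TRB were left out of clonotypes, and alternatives covered clonotype definitions, filters, normalization and each library left out.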

Additional observations from a re-analysis of the deposited data

Results flagged for a closer look

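The difference between TRBJ1 and TRBJ2 clonotypes in CDR3 bases upstream of the J match had 1 library apart from the rest. It was -2.17 bases in 5xFADTg meninges and between -1.54 and -1.38 in the other 5 libraries, so that the gap to the nearest library was 0.792 of the whole range, above Dixon's 95% limit for 6 values. That library had the fewest reads (15827899) and UMIs (49997), and their part in the value was not tested. In all, 20 groups of values were examined in this way and 1 stood out, and chance marks about 1 in 20.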

How the results depend on the processing

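Beside the results named here, the alternatives kept direction and side of the threshold, with 146 comparison values and 486 values of single segments unchanged in these respects. The cause of the changes below was not tested, except that a definition by TRB alone leaves no alpha segments to test and that leaving out a library leaves fewer clonotypes. The number of segments called between genotypes was 0, and 1 over cells. Between tissues it was 0, and 2 with at least 2 UMIs and 2 without clonotypes found in 2 or more libraries. With expansion it was 3, and 0 by TRB alone, 0 without iNKT-like receptors, 2 with at least 2 UMIs and 5 without shared clonotypes. It was 6 with TMM factors, 1 with DESeq2, 1 counting expansion from 3 cells and 1 to 3 with a library left out. For partners it was 1, and 6 by TRB alone, 2 with at least 2 UMIs, 0 without iNKT-like receptors, 0 without shared clonotypes, 0 with DESeq2, 0 over cells and 0 to 2 with a library left out. TRBV16 missed the threshold in 8 of 18 alternatives. TRBV10, TRBV13-1 and TRBV3 passed it by TRB alone (edgeR adjusted p = 0.04999 each), and TRAJ56 passed it with at least 2 UMIs (0.0493) and without NonTg parenchyma 2 (0.0446).

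Some directions reversed. The TRBJ1 share difference by genotype was -0.945 points by TRB alone, the expanded share difference 0.166 points from 3 cells, and the productive against nonproductive difference -4.94 points over contigs with a V gene. Log2 fold changes by genotype were -0.082 (TRBJ1-2) and -0.23 (TRBJ1-6) by TRB alone, -0.00778 (TRBJ1-6) with at least 2 UMIs, and -0.14 (TRBJ1-2), 0.57 (TRBJ1-5) and -0.19 (TRBJ1-6) over cells. By tissue TRBJ1-1 was -0.00111 by amino acid clonotypes, -0.037 by the deposited identifier, -0.000604 without iNKT-like receptors, -0.051 without shared clonotypes and -9.04e-06 with no count filter. TRBJ1-6 was -0.062 by TRB alone and -0.029 with at least 2 UMIs, and TRBJ1-4 was -0.11 over cells. With expansion TRBJ1-6 was -0.057 by TRB alone, -0.033 by the deposited identifier, -0.20 with TMM factors, -0.094 with DESeq2 and -0.64 from 3 cells. TRBJ1-3 was 0.19 without shared clonotypes and 0.051 from 3 cells, and TRBJ1-1 was -0.00701 with TMM factors. Of the partners, TRBV12-2+TRBV13-2 was 0.00478 with at least 2 UMIs, and TRBV19 was -0.00483 with DESeq2 and -0.38 over cells.

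With each library left out, the tissue difference in TRBJ1 share ran from -1.90 to 3.002 points, the genotype difference from 0.374 to 3.04 points by clonotype and from 8.34 to 16.9 points by cell, and the expanded share difference from -2.28 to -1.13 points. The productive against nonproductive difference ran from 3.46 to 7.79 points, tissue sharing from -1.25 to -0.533 points and log2 UMIs from -0.115 to -0.0510. Log2 fold changes whose range crossed 0 were, by genotype, TRBJ1-1 (-0.013 to 0.24), TRBJ1-4 (-0.24 to 0.39) and TRBJ1-6 (-0.21 to 0.35). By tissue they were TRBJ1-1 (-0.059 to 0.072), TRBJ1-3 (-0.15 to 0.48), TRBJ1-4 (-0.23 to 0.51), TRBJ1-5 (-0.048 to 0.37) and TRBJ1-6 (-0.055 to 0.16). With expansion it was TRBJ1-6 (-0.12 to 0.47), while TRBJ1-2 ran from -0.77 to -0.064, TRBJ1-3 from -0.48 to -0.074, TRBJ1-4 from -0.88 to -0.16 and TRBJ1-5 from -1.02 to -0.41, and among partners TRBV12-2+TRBV13-2 (-0.10 to 0.043), TRBV13-3 (-0.16 to 0.025) and TRBV19 (-0.080 to 0.19). Where a genotype is left with 1 library, that library is assumed to vary like the others.

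The labels do not say whether same-numbered parenchyma libraries share more than a number. Their deviations correlated at r = 0.0781 over 118 segments, which cannot decide it, because a shared batch need not alter segment use. The replicate block gave 0 calls, as without it. Deposited clonotype identifiers are numbered per library and could give no tissue sharing. Settings without shared clonotypes in the tissue comparison, without large clonotypes, without TRBD2 letters, with V genes only and with other V labels were chosen after seeing the data. Leaving out TRBD2 letters gave a difference upstream of J of -0.820 bases, but it removes mostly TRBJ2 junctions, and the longer of these, so it bears on no cause. Depth limits small segments most: TRBJ1-5 and TRBJ1-6 had 85 and 89 clonotypes.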

Other observations

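Among TRBJ1 clonotypes with TRBV3, a glycine followed by 2 arginines (GRR) in the CDR3 recurred. The pattern was chosen after its values were seen and was not tested. It was in 21 of 73 TRBV3 clonotypes with TRBJ1 (28.8%, 91 cells), 11 of them expanded and 4 of 10 or more cells, and in 12 of 183 with TRBJ2 (6.56%, 25 cells). With other V labels it was in 2 of 1005 TRBJ1 and 7 of 1847 TRBJ2 clonotypes. By segment it was in 12 of 22 TRBV3 clonotypes with TRBJ1-3 (54.5%), 4 of 13 with TRBJ1-4, 4 of 16 with TRBJ1-2, 1 of 19 with TRBJ1-1 and 0 of 3 with TRBJ1-5. Among TRBJ2 segments it was in 5 of 26 with TRBJ2-4 (19.2%), 3 of 17 with TRBJ2-3 (17.6%) and 3 of 27 with TRBJ2-2 (11.1%). It was in 1 of 54 with TRBJ2-7, 0 of 31 with TRBJ2-1 and 0 of 28 with TRBJ2-5. The pattern was thus most frequent with TRBJ1-3 and not a trait of all TRBJ1 segments. The clonotypes are not all independent, because some share 1 beta chain with different alpha chains. With each beta sequence counted once per library, GRR was in 16 of 66 with TRBJ1, 8 of these with TRBJ1-3, and in 12 of 180 with TRBJ2.

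The 12 with TRBJ1-3 lay in 5 of the 6 libraries, all kept the full J end, and had 7 distinct nucleotide sequences. Of the 12, 6 paired with a TRAV6-7 alpha chain (duplicate copies of the V gene counted together), as did 125 of the other 3096 clonotypes. The 6 are not all independent, because some share a beta chain within a library. Of the 9 paired cells with the first sequence below in 5xFADTg parenchyma 1, 7 listed 2 or more TRA. The 6 can therefore include a clone more than once. The 4 sequences below, all TRBV3 with TRBJ1-3, show that the bases before J differed while the J end (capitals) was the same.
5xFADTg parenchyma 1: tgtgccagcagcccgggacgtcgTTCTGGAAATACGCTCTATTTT
5xFADTg parenchyma 2 and NonTg parenchyma 2: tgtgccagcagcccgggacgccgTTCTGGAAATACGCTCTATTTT
5xFADTg parenchyma 2: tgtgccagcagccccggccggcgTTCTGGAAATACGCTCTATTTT
NonTg parenchyma 1: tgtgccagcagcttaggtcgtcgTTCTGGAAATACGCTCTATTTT

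Of 1003 distinct TRBJ1 CDR3 amino acid sequences, 6 were in both genotypes and 2 in 3 or more libraries. The same count for TRBJ2 is not given here, so the share has no background beside it. Some of the 6 were joined to different V labels where they recurred (TRBV12-1 and TRBV5, TRBV12-2 and TRBV26, TRBV15 and TRBV3). Others were TRBV3 and TRBJ1-3 sequences with the GRR pattern above.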
